A study of Rattus norvegicus with 30 samples.

Results

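The genes described here are the activity-dependent and immediate early genes of neurons, a list of 38 genes chosen by name and not by their values in these libraries. The tables of the series listed 21993 genes in all, and 36 of the 38 were among them. Junb and Dusp1 were not listed in the tables used here. All 36 listed genes passed the filter on low counts in every comparison with all libraries, and those 36 are counted below.

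The RNA came from primary hippocampal neurons of wild-type Wistar rat embryos at embryonic day 18, kept for 7 days in culture and treated for 4 or 24 h. Treated cultures received 30 µM dimethyl fumarate (DMF), 30 µM monomethyl fumarate (MMF) or 6 µM cannabidiol (CBD), and control cultures received 0.2% dimethyl sulfoxide (DMSO) for the fumarates or 0.2% ethanol (EtOH) for CBD. DMF is the dimethyl ester of fumaric acid and an oral treatment for multiple sclerosis, MMF is the monomethyl ester to which DMF is hydrolysed in the body, and CBD is a plant cannabinoid without psychotropic action. Each of the 10 groups had 3 libraries of polyadenylated RNA, numbered by replicate, and the study states that each experiment was repeated 3 times. No stimulus other than drug or vehicle was described for any group. The libraries held between 15108132 and 25367834 reads on genes, with a median of 20088658.

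Immediate early genes are switched on within minutes of calcium entry through glutamate receptors and voltage-gated channels, by factors such as CREB, SRF and MEF2 that are already present in the cell and need no new protein. Many encode transcription factors (the AP-1, EGR and NR4A families and Npas4) that in turn regulate effector genes acting at synapses or secreted from the neuron. The same genes also respond to growth factors and to stress, and the phosphatases among them switch the MAP kinase signal off again. In the hippocampus they are the classical markers of recently active neurons.

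Regulatory letters near the transcription start are shown because the genes were assembled for a shared kind of regulation. RefSeq promoters (rat build GRCr8, 250 bases before to 50 bases after the start) were matched for 26 of the 36 genes. The 150 bases before the start are printed for 5 genes named in the results below, 5′ to 3′ along the gene. All 5 carry a marked site, and they do not stand for the genes called. Capitals mark the cyclic AMP response element TGACGTCA or its half-site TGACG, the EGR site GCGNGGGCG, each read on both strands, and the CArG box to which SRF binds. Vgf lies at chr12:25277021-25277170 on the minus strand, Egr2 at chr20:21054442-21054591 on the minus strand, Nptx2 at chr12:15162046-15162195 on the minus strand, Scg2 at chr9:88256867-88257016 on the minus strand and Nr4a1 at chr7:134259988-134260137 on the plus strand.
Vgf: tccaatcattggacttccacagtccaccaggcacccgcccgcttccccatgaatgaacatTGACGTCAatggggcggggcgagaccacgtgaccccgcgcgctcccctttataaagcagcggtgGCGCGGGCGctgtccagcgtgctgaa
Egr2: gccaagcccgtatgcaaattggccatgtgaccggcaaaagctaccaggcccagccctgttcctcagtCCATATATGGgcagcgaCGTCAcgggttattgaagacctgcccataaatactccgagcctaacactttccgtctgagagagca
Nptx2: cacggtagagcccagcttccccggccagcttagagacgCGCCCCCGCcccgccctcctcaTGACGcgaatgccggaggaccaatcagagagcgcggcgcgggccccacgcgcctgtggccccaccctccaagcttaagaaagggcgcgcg
Scg2: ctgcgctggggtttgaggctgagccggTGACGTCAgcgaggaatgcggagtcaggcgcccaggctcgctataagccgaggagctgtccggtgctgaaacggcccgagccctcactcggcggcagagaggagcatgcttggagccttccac
Nr4a1: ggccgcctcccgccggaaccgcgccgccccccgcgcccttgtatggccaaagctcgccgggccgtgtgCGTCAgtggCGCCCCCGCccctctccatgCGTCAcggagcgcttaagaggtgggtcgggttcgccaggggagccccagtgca

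The whole response element TGACGTCA was present in the promoters of 4 of the 26 genes (Btg2, Ier2, Scg2 and Vgf), 15.4%, against 1.83% of all 33469 promoters. The half-site TGACG, which the whole element contains, was present in 15 of 26 (57.7%) against 21.2%. The EGR site was found in 6 of 26 (23.1%) against 4.98%, the CArG box in 3 of 26 (Dusp5, Egr1 and Egr2, 11.5%) against 1.64%, and the AP-1 site TGANTCA in Bdnf alone (3.85%) against 7.33%. A gene was counted if any of its promoters matched, while the share over all is by single promoter. A gene with several promoters thus has more chances of a match. These are matches of letters in a short window and carry no test.

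The cultures carried the markers of neurons. All 12 neuron markers had a median above 1 CPM (reads of the gene in every 1000000 reads on genes), with a summed level of 3523 to 4908 CPM per library. Glia were present beside them, with astrocyte markers summing to 2012 to 5161 CPM and oligodendrocyte lineage markers to 466 to 1093 CPM. Markers of dividing cells summed to 137 to 429 CPM. Of 8 microglial markers none reached a median of 1 CPM, and Cx3cr1 was at 0 in 11 libraries. In bulk RNA, fewer cells of a type and less RNA per cell cannot be told apart.

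Some of the genes stood unusually high in a single control library. DMSO replicate 1 at 4 h held the highest value of all 30 libraries for 27 of the 36 genes, and it was above both other DMSO 4 h libraries for 33. Its median ratio to the mean of those libraries was 0.87 on the log2 scale, and 16 of 36 genes were more than 2-fold above that mean, against 2.18% of all 13281 genes compared in that group. Npas4, a transcription factor induced almost only by calcium entry, was at 169 CPM there and at 5.74 and 8.24 CPM in replicates 2 and 3. Microglial markers summed to 12.9 CPM in that library against 2.90 and 3.01 CPM, and markers of endothelium, mural cells and fibroblasts to 183 CPM against 85.9 and 74.0 CPM. Replicate 1 of the other 4 h groups was also the highest of its group for both, at 8.49 to 11.96 CPM and at 105 to 138 CPM. Whether these cell types had a part in it was not tested. CBD replicate 3 at 24 h also stood apart, above both other CBD 24 h libraries for 25 genes. For the main comparisons that use either library, counts or medians are given with and without it, and values of single genes only in part. Both libraries were picked by the values of these genes, so fits without them are not independent of that choice.

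**Figure D1:**
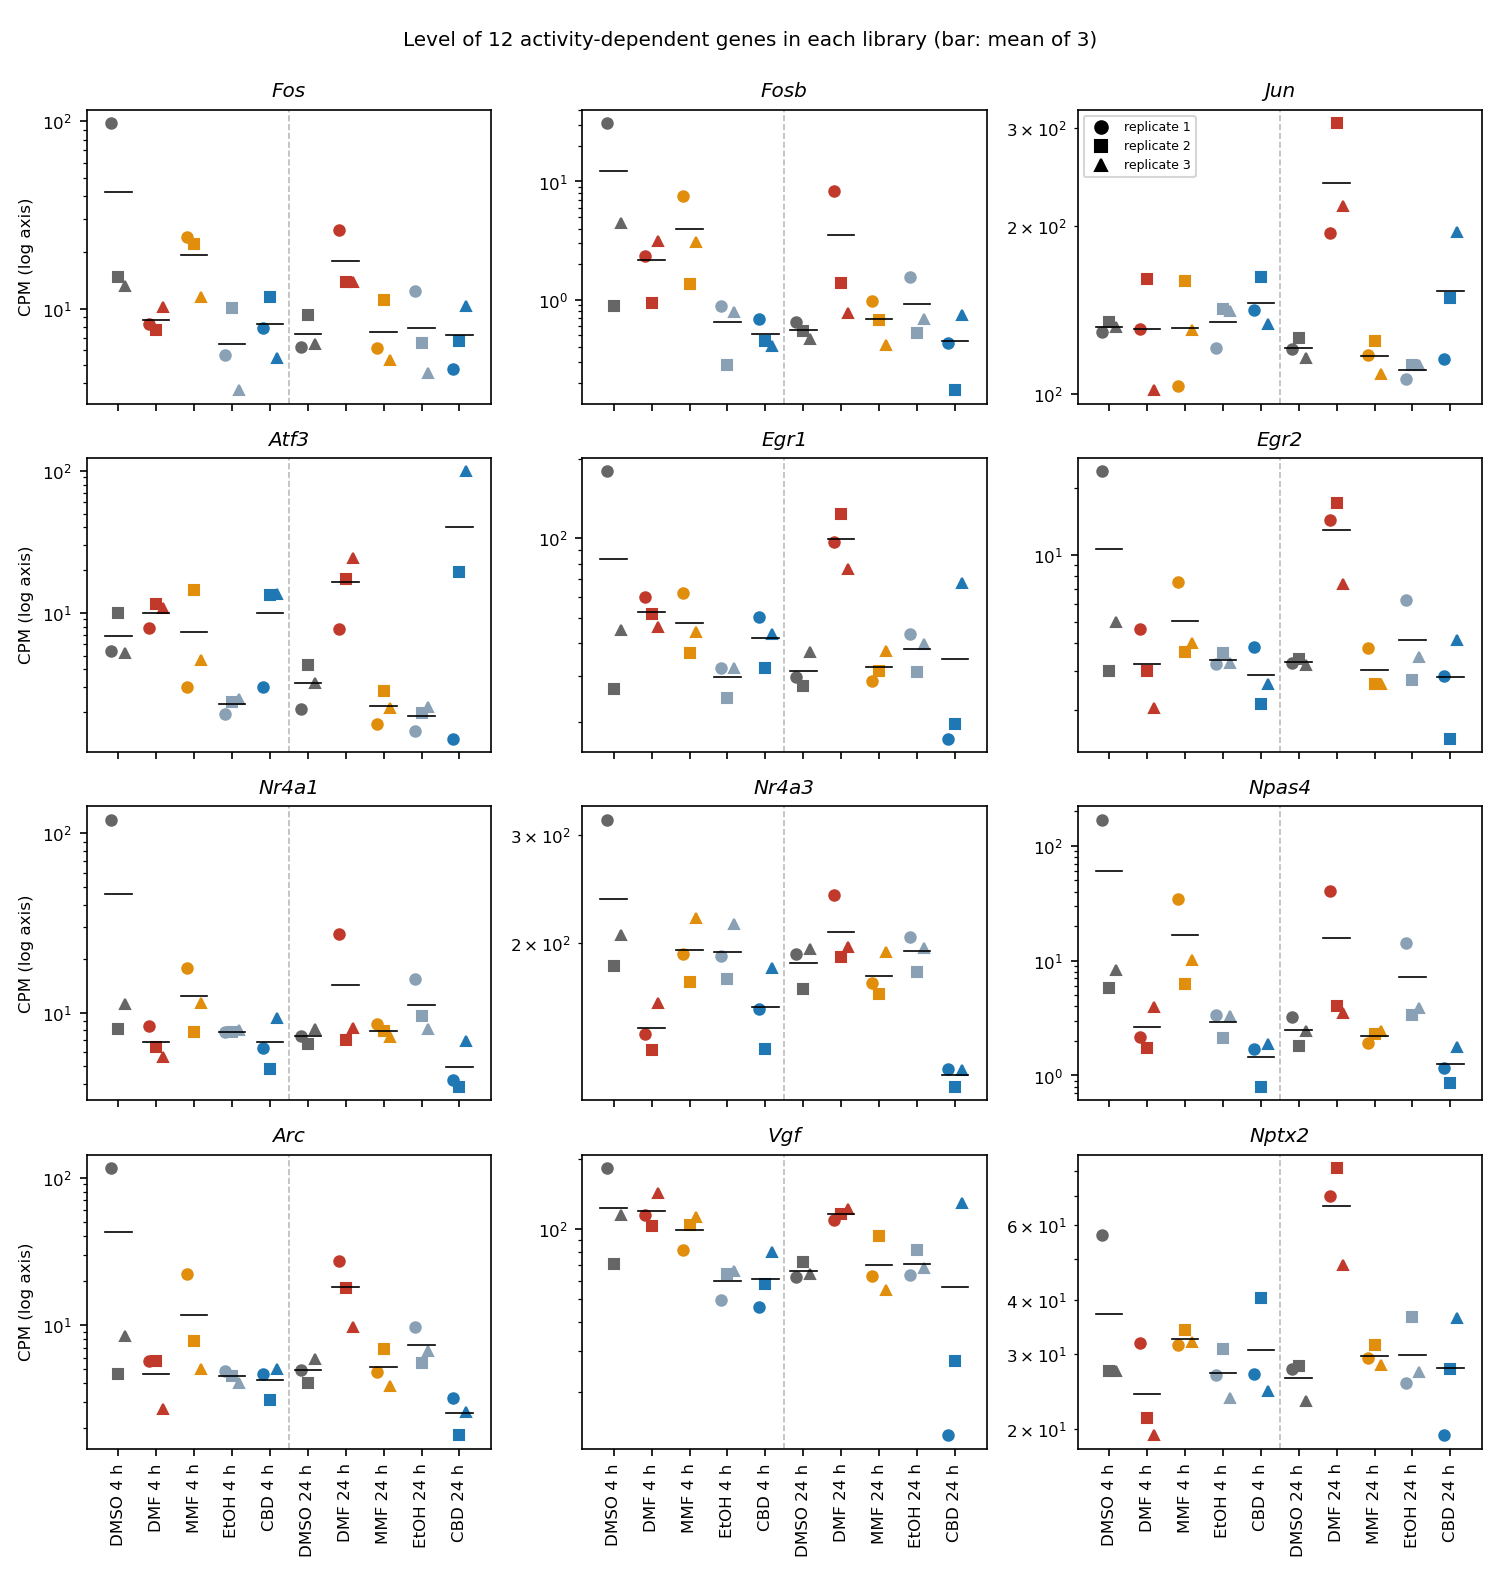
Levels of 12 of the genes in each of the 30 libraries, in CPM on a log axis. Each point is 1 library, its shape gives the replicate number, and the bar is the mean of the 3 libraries of the group, with 4 h groups left and 24 h groups right of the dashed line. DMSO replicate 1 at 4 h lies far above its group for Fos, Fosb, Npas4, Arc and Nr4a1, and the 3 DMF libraries at 24 h lie above the 3 DMSO libraries for all of the genes drawn except Nr4a1 and Nr4a3.

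The comparison of DMF with DMSO at 24 h gave more calls among these genes than any other comparison in limma without a replicate block. Of the 36 genes 12 rose and none fell at an adjusted p under 0.05 in limma, where 3.97% of all genes tested were called and 1.88% were called higher. The 12 were the AP-1 factors Fos, Jun and Atf3, the EGR factors Egr1 and Egr2, the early-response genes Trib1 and Gadd45b, the phosphatase Dusp4 and the effectors Vgf, Nptx2, Homer1 and Arc. The median fold change over the 36 was 0.50 on the log2 scale against -0.0065 over all genes, and 33 of the 36 estimates were positive. In 20 of the 36 every DMF library was above every DMSO library, a separation in that direction found in 11.3% of all genes. With the replicate number as a block 19 genes rose, against 5.81% of all genes called higher in that fit. Without replicate 1 of both groups 2 genes, Vgf and Atf3, passed the test, against 0.438% of all genes. With the block 17 passed, all higher, where 10.2% of all genes were called (677 higher and 764 lower, of 14155). Without the block the count was 5 when DMSO replicate 1 alone was left out and 7 when DMF replicate 2 alone was. Vgf, Egr1, Dusp4, Trib1 and Nptx2 kept the call in all 6 fits that each left out a library, Egr2 and Jun in 5, Atf3 and Arc in 3, Fos in 2, and Homer1 and Gadd45b in 1.

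The AP-1 factors are leucine zipper proteins that pair with each other on one short DNA site. Jun was at 195, 306 and 218 CPM in the DMF libraries and at 120, 126 and 116 CPM in the DMSO libraries. All DMF values were thus above all DMSO values, and the fold change was 0.95 on the log2 scale (SE 0.146, limma adjusted p = 0.00948). Atf3, a stress-responsive partner of Jun, was at 7.72, 17.5 and 24.5 CPM with DMF and at 2.11, 4.27 and 3.18 CPM with DMSO. Again the groups did not overlap, with DMF replicate 1 the lowest of the treated libraries, and the fold change was 2.25 (SE 0.405, limma adjusted p = 0.0197). Fos was at 26.4, 13.8 and 13.9 CPM against 6.26, 9.27 and 6.49 CPM, and its fold change of 1.24 (SE 0.256) had a limma adjusted p of 0.0328. DMF replicate 1 was the highest library for Fos and the lowest for both Jun and Atf3.

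Fosb and Fosl2, the other Fos-type partners, were called only with the replicate block. Fosb was at 8.33, 1.4 and 0.771 CPM with DMF against 0.643, 0.546 and 0.463 CPM, so that nearly all of its difference lay in replicate 1. The Fosb fold change was 1.84 (SE 0.717, limma adjusted p = 0.222, and 0.0316 with the block). Fosl2 was at 102, 106 and 113 CPM against 61.4, 90.1 and 89.1 CPM, with no overlap (log2 fold change 0.42, adjusted p = 0.00933 with the block).

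EGR factors are zinc finger proteins, and Egr1 is the member most often used to map active neurons. Egr1 was at 97.1, 124 and 76.3 CPM with DMF and at 29.8, 27.5 and 37.1 CPM with DMSO. The lowest DMF library was above the highest DMSO library by far, and the fold change was 1.63 (SE 0.172, limma adjusted p = 0.00164). Egr2 was at 14.3, 17.1 and 7.38 CPM against 3.28, 3.41 and 3.18 CPM, with DMF replicate 3 the closest to the controls and a fold change of 1.87 (SE 0.273, limma adjusted p = 0.00746). Egr3 rose only with the block (0.48, adjusted p = 0.0350), and it was at 32.1, 17.7 and 19.3 CPM against 16.8, 13.7 and 17.0 CPM. Egr4 overlapped between the groups at 8.67, 5.41 and 7.14 CPM against 4.68, 5.14 and 6.22 CPM.

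The NR4A orphan nuclear receptors did not pass the test. Nr4a1 was at 27.3, 7.04 and 8.15 CPM with DMF against 7.43, 6.68 and 8.14 CPM, and only replicate 1 was above the control range by a wide margin. Its log2 fold change of 0.64 had a 95% interval from -0.32 to 1.60. Nr4a2 had a fold change of 0.37 (95% interval 0.08 to 0.66) and Nr4a3 one of 0.16 (95% interval -0.06 to 0.37). Npas4 was likewise highest in replicate 1, at 40.1, 4.01 and 3.49 CPM against 3.22, 1.82 and 2.45 CPM (log2 fold change 1.74, adjusted p = 0.0307 with the block). Klf2 was at 3.00, 2.79 and 4.06 CPM against 4.21, 4.00 and 4.10 CPM, and its estimate was negative at -0.35, as were those of the prostaglandin synthase Ptgs2 at -0.37 and of Rgs2 at -0.00479.

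Among the small early-response genes, Trib1, a pseudokinase adaptor, was at 13.6, 10.9 and 13.9 CPM with DMF and at 4.21, 5.41 and 5.82 CPM with DMSO. The groups stood well apart, with a fold change of 1.30 (SE 0.165, limma adjusted p = 0.00390). Gadd45b, a stress and DNA demethylation factor, was at 11.1, 9.72 and 7.38 CPM against 5.03, 5.09 and 5.36 CPM, a fold change of 0.83 (SE 0.164, limma adjusted p = 0.0274). Ier3 was called with the block alone (2.00, adjusted p = 0.0270), and its DMF libraries were spread from 1.44 to 9.33 CPM against 0.530 to 1.14 CPM. The phosphatase Dusp4, which inactivates MAP kinases in the nucleus, was at 322, 325 and 272 CPM against 160, 160 and 191 CPM. Its values were tight in both groups, with a fold change of 0.84 (SE 0.0955, limma adjusted p = 0.00251).

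The effectors that rose act at the synapse or are released from it. Vgf, the precursor of secreted neuropeptides, was at 110, 116 and 122 CPM with DMF and at 62.3, 72.0 and 64.2 CPM with DMSO. It had the smallest p of the 36 genes, at a fold change of 0.80 (SE 0.0789, limma adjusted p = 0.00120). Nptx2, a secreted pentraxin that clusters AMPA receptors, was at 69.9, 81.5 and 48.5 CPM against 27.7, 28.2 and 23.3 CPM. All treated libraries were above the controls, and the fold change was 1.30 (SE 0.171, limma adjusted p = 0.00476). Arc, which drives removal of AMPA receptors from the synapse, was at 27.0, 17.9 and 9.65 CPM against 4.91, 4.00 and 5.89 CPM, a fold change of 1.76 (SE 0.321, limma adjusted p = 0.0208). The scaffold gene Homer1 had the smallest fold change of the genes called, at 96.0, 96.7 and 76.5 CPM against 60.7, 62.3 and 63.4 CPM (fold change 0.51, SE 0.0929, limma adjusted p = 0.0202). Bdnf and Scg2, both precursors of secreted proteins, were called with the block alone, at fold changes of 0.71 (adjusted p = 0.0368) and 0.40 (adjusted p = 0.00751).

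**Figure D2:**
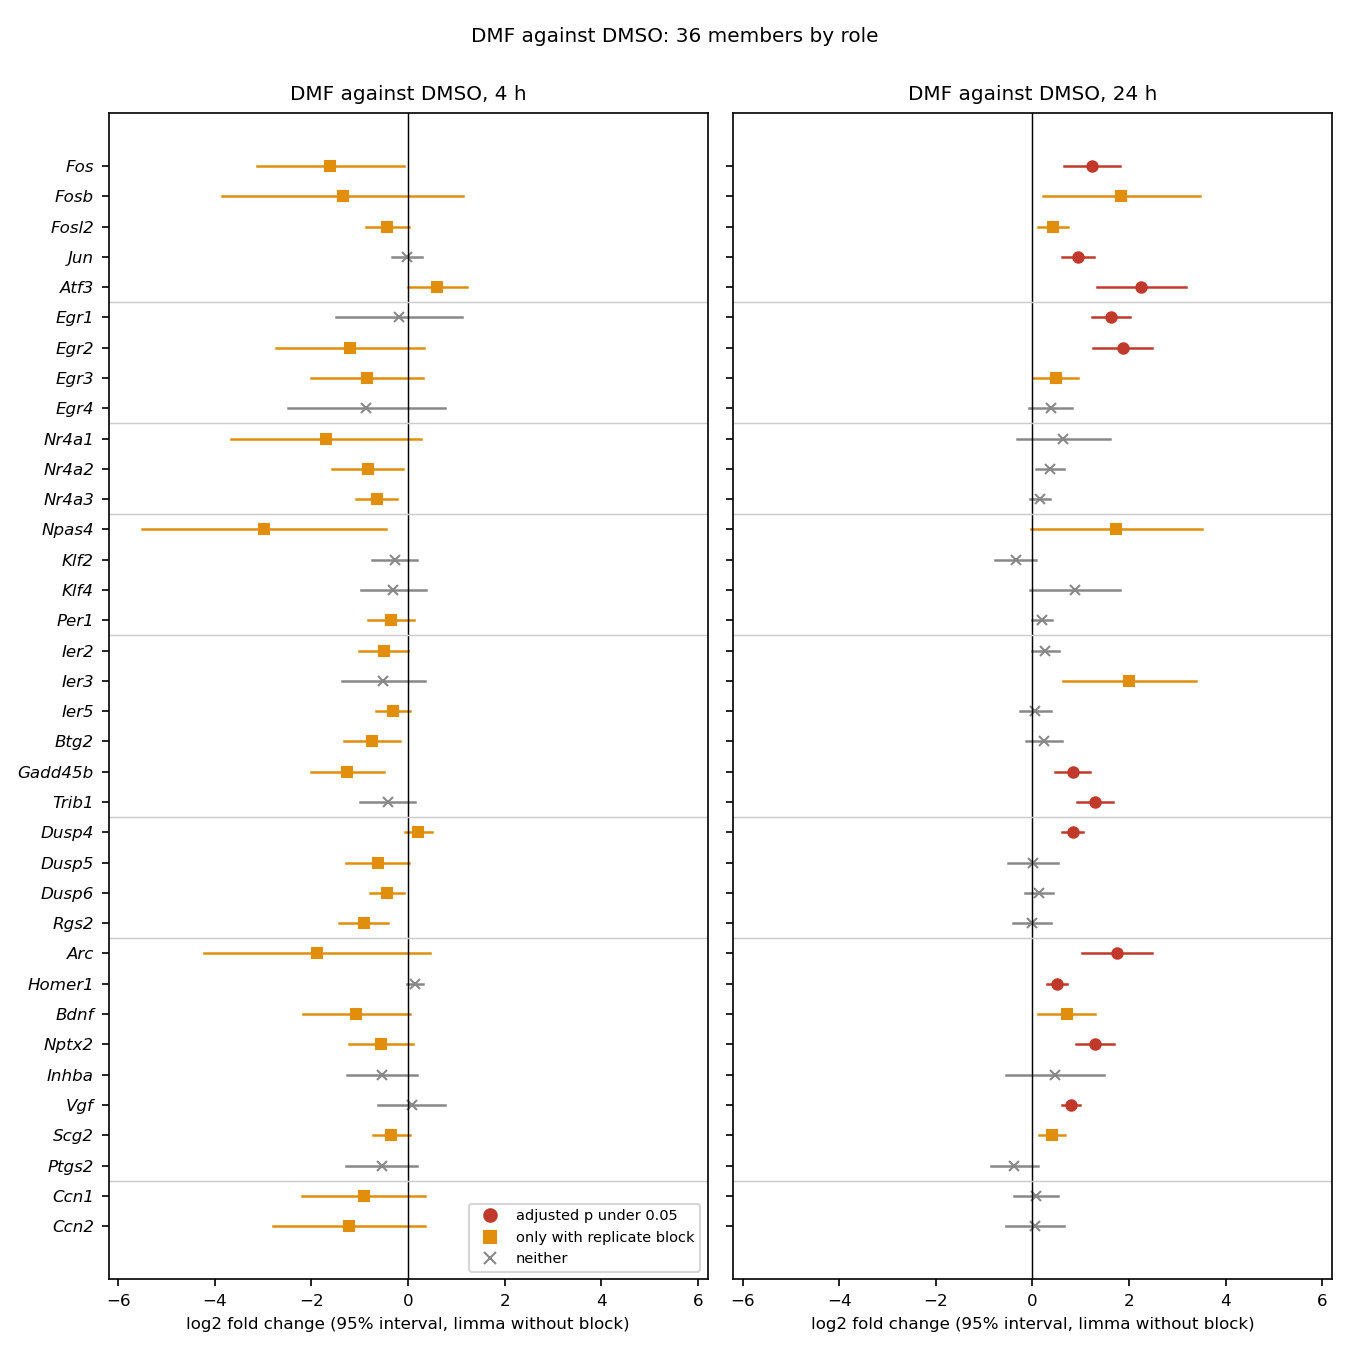
Log2 fold change of each of the 36 genes for DMF against DMSO at 4 h (left) and 24 h (right), grouped by role, with 95% intervals from limma on 3 against 3 libraries. Filled red circles passed an adjusted p of 0.05, orange squares passed only with the replicate block, and grey crosses passed in neither. At 24 h 12 genes are red, all right of 0, and at 4 h none is, with most points left of 0.

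Genes beyond the list moved alike at 24 h only in part. Of 32 other activity-regulated genes 4 rose (Csrnp1, Gem, Nfil3 and Klf10), with a median of 0.26, and 7 rose with the block. Csrnp1 had a fold change of 1.05 (SE 0.152, limma adjusted p = 0.00687) and Gem, a small GTPase that restrains calcium channels, one of 1.33 (SE 0.244, limma adjusted p = 0.0208). Of 21 upstream factors and kinases tested, CREB, SRF and MEF2 families included, none was called without the block, and 1 rose and 1 fell with it. Of 10 glutamate receptor and calcium channel genes 2 fell, the AMPA receptor subunit Gria3 at -0.74 (limma adjusted p = 0.00275) and the metabotropic receptor Grm5. Markers of other cells also differed. Of 8 markers of dividing cells 7 fell, their sum being 137 to 168 CPM with DMF against 284 to 304 CPM, and of 7 oligodendrocyte lineage markers 3 fell (Cspg4, Pdgfra and Sox10), with sums of 587 to 731 CPM against 729 to 890 CPM. Astrocyte markers summed to 4718, 5161 and 2954 CPM with DMF against 3841, 4527 and 2713 CPM, higher in each replicate number, although of 8 markers 1 fell (Aldh1l1) and none rose, or 4 fell and 1 rose with the block. Neuron markers summed to 3544 to 4331 CPM against 4293 to 4747 CPM with none called, or 5 lower and 1 higher with the block. The part of these cell types in the result was not tested.

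Set against MMF in place of the vehicle, DMF at 24 h again stood higher. The contrast used the same DMF libraries as the one above, so it is not independent of it. Of the 36 genes 10 rose and none fell, against 3.56% of all genes called and 1.43% called higher, and the median was 0.52 against -0.0084 over all genes. With the block 19 rose and 1, Ccn2, fell, against 4.95% and 7.28% of all genes. Leaving out replicate 1 of both groups left 1 gene called, Atf3, against 0.209% of all genes. With the block it left 17 (16 higher and 1 lower), against 10.8% of all genes (642 higher and 908 lower, of 14328). Leaving out MMF replicate 1 alone left 5 without the block. In 18 genes every DMF library was above every MMF library, against 11.6% of all genes, and in Ccn2 every one was below, against 11.1%.

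Atf3 gave the largest fold change of the 10, with MMF libraries at 1.66, 2.81 and 2.12 CPM (fold change 2.77, SE 0.388, limma adjusted p = 0.00696). For Egr1 the MMF libraries were at 28.6, 31.3 and 37.3 CPM, all below the DMF libraries (1.60, SE 0.168, limma adjusted p = 0.00168). Egr2 was at 3.80, 2.63 and 2.63 CPM with MMF (2.02, SE 0.302, limma adjusted p = 0.00953). Jun, at 117, 125 and 109 CPM with MMF, and Dusp4, at 149, 175 and 179 CPM, likewise had no overlap with DMF. The Jun fold change was 1.01 (SE 0.152, limma adjusted p = 0.00953) and that of Dusp4 0.87 (SE 0.0956, limma adjusted p = 0.00207). Trib1, at 6.82, 6.07 and 6.82 CPM with MMF, had a fold change of 0.95 (SE 0.136, limma adjusted p = 0.00748).

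The effectors called against MMF were those called against DMSO. Nptx2 was at 29.3, 31.5 and 28.2 CPM with MMF (fold change 1.14, SE 0.166, limma adjusted p = 0.00835). Arc was at 4.82, 6.82 and 3.87 CPM (1.73, SE 0.346, limma adjusted p = 0.0323). Vgf was at 62.8, 93.1 and 54.6 CPM, more spread than in the DMSO libraries (0.77, SE 0.169, limma adjusted p = 0.0463), and Homer1 at 63.7, 58.2 and 70.3 CPM (0.49, SE 0.108, limma adjusted p = 0.0471). These last 3 kept their call in 1 of 6 fits that each left out a library. Ccn2, a matricellular protein of the YAP and TGF-beta programme, was the exception in direction, at 4.22, 3.72 and 2.39 CPM with DMF against 9.36, 6.96 and 4.42 CPM (-0.96, adjusted p = 0.00276 with the block).

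At 4 h the estimates for DMF against DMSO pointed the other way, though no gene passed the test without the block. The call rate over all genes was 3.41%, 8 of the 36 had an unadjusted p under 0.05, edgeR called none and DESeq2 called 5, all lower (7.21% of all genes). The median was -0.55 against 0.0022 over all genes, and 32 of 36 estimates were negative. In 11 genes every DMF library was below every DMSO library, against 13.3% of all genes. With the replicate block 25 genes were called, 23 lower and 2 higher, where 23.0% of all genes were called. DMSO replicate 1 bears on all of this. Without that library the median was -0.22, and without replicate 1 of both groups the block called 19 genes (14 lower and 5 higher), against 23.4% of all genes.

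Rgs2, a regulator of G protein signalling, had the smallest unblocked p. It was at 22.5, 17.8 and 18.9 CPM with DMF and at 55.5, 29.0 and 32.8 CPM with DMSO, so that even the lower controls were above the treated libraries. The fold change was -0.92 (SE 0.220, limma adjusted p = 0.0614, and 2.17e-05 with the block), and -0.73 (adjusted p = 2.48e-07) with the block and without replicate 1. Gadd45b was at 5.62, 4.14 and 4.12 CPM against 19.7, 9.52 and 7.27 CPM (-1.26, SE 0.332, limma adjusted p = 0.0788, and 0.000112 with the block). Nr4a3 was at 142, 134 and 160 CPM against 317, 184 and 206 CPM (-0.65, SE 0.185, limma adjusted p = 0.0962, and 0.000461 with the block). In each of these 3 the groups did not overlap.

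Npas4 had the widest swing, at 2.18, 1.73 and 3.98 CPM with DMF against 169, 5.74 and 8.24 CPM. Its fold change of -2.98 (SE 1.10, limma adjusted p = 0.178, and 0.00241 with the block) became -1.35 (adjusted p = 4.09e-06 with the block) without replicate 1. Fos was at 8.29, 7.65 and 10.2 CPM against 98.1, 14.7 and 13.1 CPM (-1.61, adjusted p = 0.00541 with the block). Bdnf was at 16.8, 13.6 and 16.6 CPM against 84.9, 19.4 and 21.8 CPM (-1.07, adjusted p = 0.00505 with the block). All 3 were below every control, and in all 3 the distance to DMSO replicate 1 was several times that to the other controls. Btg2, an antiproliferative early-response gene, was at 37.6, 42.0 and 23.2 CPM against 77.4, 54.1 and 41.8 CPM (-0.74, adjusted p = 8.73e-05 with the block). Nr4a2 and Dusp6, at -0.83 (adjusted p = 0.0189 with the block) and -0.45 (adjusted p = 0.00941 with the block), were also below every control.

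Atf3 and Dusp4 were the 2 genes higher with the block at 4 h. Atf3 was at 7.86, 11.5 and 10.8 CPM against 5.37, 9.93 and 5.23 CPM (0.61, adjusted p = 0.0105 with the block), with overlap between the groups. Dusp4 was at 343, 295 and 292 CPM against 314, 223 and 277 CPM (0.21, adjusted p = 0.0142 with the block). For Egr1 the direction rested on 1 library, at 59.9, 51.5 and 46.1 CPM against 180, 26.7 and 45.0 CPM. The Egr1 fold change ran from -0.77 to 0.60 over the fits that each left out a library, and with the block and without replicate 1 it was 0.51 (adjusted p = 0.000149). Vgf was at 114, 103 and 143 CPM against 183, 70.8 and 115 CPM, and without replicate 1 its fold change was 0.45 (adjusted p = 6.78e-07 with the block), while over the fits that each left out a library it ran from -0.27 to 0.41. Egr4 also changed sign between these fits, from -1.56 to 0.09.

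Among the other lists at 4 h, 1 of 21 upstream factors and kinases tested rose with DMF and none fell, with a median of 0.0259. It was Creb1, the gene of the factor that binds the response element shown above (0.89, limma adjusted p = 0.00925). With the block 5 rose and 1 fell. The latter was Srf, the gene of the factor that binds the CArG box (-0.52, adjusted p = 0.000183 with the block). Of the 32 other activity-regulated genes 1 rose (Amigo3) and 1 fell (Klf6), and with the block 4 rose and 13 fell. Of 12 neuron markers 2 fell, Tubb3 (-0.64) and Neurod6 (-0.46), and none rose. Their median was -0.06 with 5 of 12 positive, and with the block 5 fell and 1 rose. Of 7 markers of endothelium, mural cells and fibroblasts 1 fell, the pericyte marker Pdgfrb (-1.26), and 3 fell with the block.

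DMF against MMF at 4 h did not use the DMSO libraries, and so did not rest on DMSO replicate 1. It used the same DMF libraries as the comparison with DMSO at 4 h, so it is not independent of it. No gene was called without the block, where 1.61% of all genes were, 10 had an unadjusted p under 0.05, edgeR called 0 and DESeq2 called Fos, Npas4 and Rgs2, all lower (5.24% of all genes). The block called 21 genes, 17 lower and 4 higher, against 23.6% of all genes, and also 21 without replicate 1 of both groups, against 27.6%. In 7 genes every DMF library was below every MMF library (Fos, Nr4a3, Npas4, Gadd45b, Dusp6, Rgs2 and Ptgs2), against 11.8% of all genes, and in none was it above. MMF replicate 1 was itself the highest MMF library for 18 of the 36 genes. In 5 it was more than 2-fold above the mean of the other MMF 4 h libraries, against 1.31% of all genes. Npas4 was at 34.4, 6.23 and 10.1 CPM with MMF, and Arc, which overlapped between the groups, at 22.0, 7.78 and 5.03 CPM.

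For Npas4 the fold change between the esters was -2.34 (limma adjusted p = 0.0880, and 3.12e-05 with the block). For Fos, at 24.2, 22.2 and 11.5 CPM with MMF, it was -1.06 (limma adjusted p = 0.0895, and 0.000447 with the block). Nr4a3, at 192, 173 and 220 CPM with MMF, had a fold change of -0.40 (adjusted p = 3.36e-05 with the block), and Rgs2, at 38.4, 24.6 and 27.9 CPM, one of -0.58 (adjusted p = 0.000117 with the block). The 4 genes called higher with DMF were Atf3 (0.77), Dusp4 (0.35), Vgf (0.29) and Homer1 (0.18).

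Whether the DMF effect differed between the times was tested with the interaction of treatment and time. All 4 genes called had a more positive fold change at 24 h than at 4 h, against 4.12% of all genes called. A fall at 4 h adds to this difference, as for Gadd45b, which was lower with DMF at 4 h and higher at 24 h. Gadd45b had a difference of 2.09 on the log2 scale (SE 0.405, limma adjusted p = 0.0138), Nptx2 of 1.85 (SE 0.380, limma adjusted p = 0.0178), Trib1 of 1.72 (SE 0.319, limma adjusted p = 0.0117) and Jun of 0.97 (SE 0.225, limma adjusted p = 0.0308). In 35 of 36 genes the difference was positive, with a median of 1.09. The block called 23, against 13.2% of all genes. Without DMSO replicate 1 at 4 h alone the median was 0.70, 34 differences were positive and 6 genes were called without the block. Without replicate 1 of all 4 groups none was called without the block, where 0.494% of all genes were. In that fit 20 of the 36 had an unadjusted p under 0.05, as did 2013 of all 14574 genes. With the block 18 were called, all positive, against 9.65% of all genes (681 positive and 725 negative, of 14574). Of single libraries, the count was 2 without DMF replicate 2 at 24 h alone and 10 without DMSO replicate 2 at 4 h alone. Atf3 and Dusp4 had positive fold changes at both times, and their differences of 1.65 and 0.62 were called with the block alone (adjusted p = 0.00490 and 0.0117). The effects of MMF and of CBD did not pass a test of their change between the times in any of the 36 genes. For MMF 0.0% of all genes were called and none of the 36 had an unadjusted p under 0.05, for CBD 0.0% and 6 of the 36, and edgeR and DESeq2 called none.

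**Figure D3:**
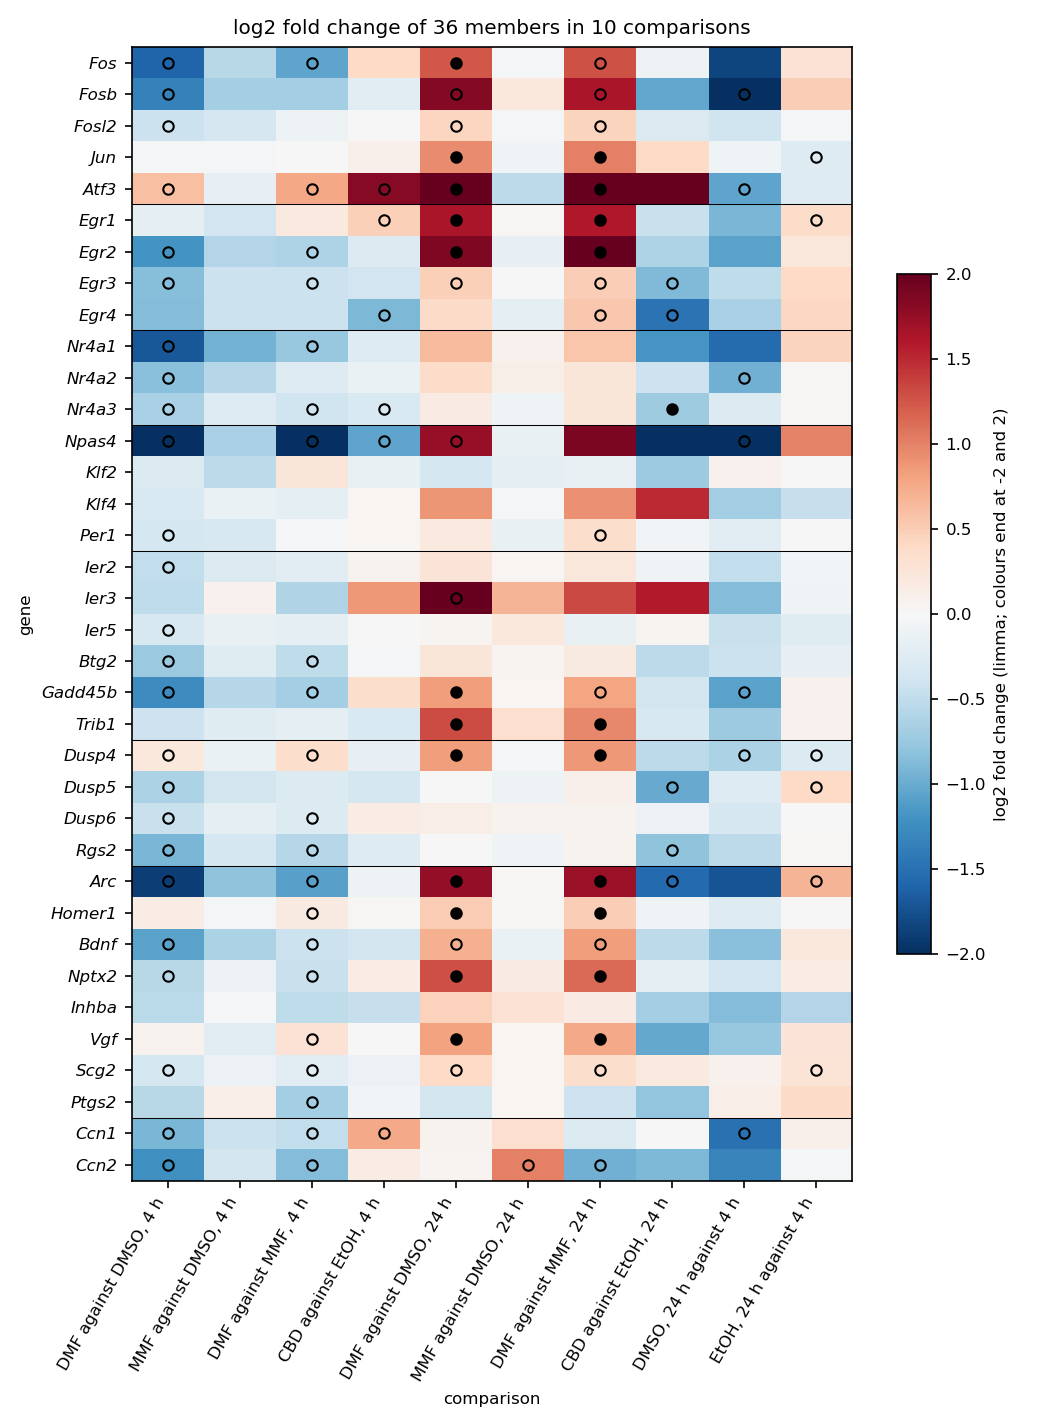
Log2 fold change of each of the 36 genes (down, grouped by role) in 10 comparisons (across), with colours ending at -2 and 2. A filled dot marks a gene with an adjusted p under 0.05 in limma, and an open circle one called with the replicate block alone. The filled dots lie in the columns of DMF against DMSO and against MMF at 24 h, with 1 more for CBD at 24 h, Nr4a3, while the column of MMF at 4 h holds no mark.

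MMF, which differs from DMF by the loss of 1 methyl ester, gave no call against DMSO at either time without the block. At 4 h the fold changes lay between -0.94 for Nr4a1 (95% interval -2.94 to 1.06) and 0.13 for Ptgs2, with none of the 36 at an unadjusted p under 0.05, none called by edgeR, DESeq2 or the block, and 0.0% of all genes called. The median of -0.33 became 0.0227 without DMSO replicate 1. Arc, for example, was at 22.0, 7.78 and 5.03 CPM with MMF against 116, 4.67 and 8.35 CPM, with replicate 1 the highest in both groups.

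At 24 h the estimates for MMF ran from -0.52 for Atf3 (95% interval -1.18 to 0.15) to 1.01 for Ccn2 (95% interval 0.37 to 1.65), with a median of 0.0301. Of the 36 genes 2 had an unadjusted p under 0.05, edgeR and DESeq2 called none, and 0.00707% of all genes were called. Of the genes raised by DMF, the 95% interval for MMF ran from -0.26 to 0.32 for Egr1, from -0.25 to 0.17 for Dusp4, from -0.21 to 0.08 for Jun and from -0.49 to 0.55 for Arc. Ccn2 was at 9.36, 6.96 and 4.42 CPM with MMF against 2.63, 4.23 and 2.98 CPM, above every control, and it was called with the block alone (SE 0.282, limma adjusted p = 0.952, and 0.0182 with the block), where 1.38% of all genes were. Trib1 was also above every control, a separation in that direction found in 4.62% of all genes.

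CBD was compared with its own vehicle, ethanol. At 4 h no gene was called without the block, where 0.00705% of all genes were. Of the 36 genes 6 had an unadjusted p under 0.05, edgeR called 0 and DESeq2 called Atf3 alone (0.127% of all genes). Atf3 was at 2.98, 13.4 and 13.6 CPM with CBD against 1.94, 2.37 and 2.48 CPM, a rise in replicates 2 and 3 with replicate 1 just above the controls (1.83, SE 0.543, limma adjusted p = 1.00, and 0.000317 with the block). The block called 6 genes, against 2.33% of all genes. Egr1 (0.47, adjusted p = 0.000472 with the block) and Ccn1 (0.76, adjusted p = 0.00725 with the block) were higher beside Atf3. Nr4a3 (-0.31, adjusted p = 0.000604 with the block), Npas4 (-1.06, adjusted p = 0.0112 with the block) and Egr4 (-0.90, adjusted p = 0.0494 with the block) were lower.

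At 24 h Nr4a3 fell with CBD, the only one of the 36 to pass in limma without the block, where 0.114% of all genes were called. Of the 36 genes edgeR called 1 and DESeq2 called 8, all lower. The share of all genes that these tools called is not given here, so the counts cannot be set against it. Nr4a3 was at 125, 117 and 125 CPM with CBD and at 205, 180 and 197 CPM with EtOH. The CBD values were close together and all below the controls, with a fold change of -0.71 (SE 0.0791, limma adjusted p = 0.0253, and 0.00844 with the block). The call was kept in 2 of 6 fits that each left out a library, and lost without CBD replicate 2 or any 1 of the EtOH libraries. In 12 genes every CBD library was below every EtOH library, against 8.59% of all genes, and in none above. The median was -0.48 against -0.0047 over all genes.

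With the block 6 genes were called at 24 h, all lower, against 0.398% of all genes called lower. Arc was at 3.21, 1.77 and 2.56 CPM with CBD against 9.72, 5.50 and 6.61 CPM (-1.55, adjusted p = 0.0124 with the block). Egr4 was at 1.91, 2.06 and 2.28 CPM against 6.92, 4.58 and 5.82 CPM (-1.47, adjusted p = 0.0334 with the block), and Rgs2 at 15.1, 15.6 and 14.2 CPM against 29.3, 22.8 and 24.3 CPM (-0.80, adjusted p = 0.0334 with the block). The groups were well separated in all 3. Egr3 (-0.88, adjusted p = 0.0328 with the block) and Dusp5, a phosphatase specific to ERK (-1.003, adjusted p = 0.0148 with the block), were the others.

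CBD replicate 3 differed from replicates 1 and 2 in which genes were high. Atf3 was at 1.30, 19.5 and 99.4 CPM in the CBD libraries, against 1.47 to 2.17 CPM with EtOH, so replicate 1 was at the control level and replicate 3 far above it (2.82, SE 1.28, limma adjusted p = 0.521). Vgf was at 13.0, 27.3 and 129 CPM against 63.3, 81.3 and 67.9 CPM, below the controls in replicates 1 and 2 and above them in replicate 3. Scg2, at 85.0, 84.8 and 154 CPM, and Egr1, at 17.3, 19.7 and 67.6 CPM, also stood highest in replicate 3. In that library astrocyte markers summed to 2137 CPM against 4626 and 4093 CPM in the other CBD libraries, but replicate 3 was the lowest for them in every group, at 2776 CPM in its own EtOH control. Its oligodendrocyte lineage markers summed to 532 CPM against 913 and 997 CPM. The part of these cell types was not tested. Without replicate 3 of both groups no gene was called without the block, where 0.0924% of all genes were. In that fit 17 had an unadjusted p under 0.05, as did 742 of all 14065 genes. With the block 16 of the 35 that passed the filter (Fosb did not) were called, all lower. In that fit 2.46% of all genes were called, 219 lower and 127 higher, of 14065. Vgf (-1.95, adjusted p = 1.64e-06), Npas4 (-2.76, adjusted p = 0.000507), Nr4a1 (-1.61, adjusted p = 0.000296), Egr1 (-1.02, adjusted p = 0.000813) and Dusp4 (-0.65, adjusted p = 0.000169) were then among the 16. That fit held 2 libraries in each group. Replicate 3 was left out after the values of these genes had been seen, so these calls are not independent of that choice. Of the neuron markers, Gad1 and Gad2, the enzymes that make GABA, fell at 24 h (-0.81 and -0.84, limma adjusted p = 0.0134 and 0.0104).

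The vehicle groups show how the genes behaved with no drug. Between 4 and 24 h of DMSO no gene was called (0.0% of all genes; 18 of the 36 had an unadjusted p under 0.05, edgeR called 0 and DESeq2 called 2, where it called 0.344% of all genes), and the median was -0.67. With the block 7 were lower at 24 h, against 0.372% of all genes called lower. Dusp4, at 160, 160 and 191 CPM after 24 h against 314, 223 and 277 CPM after 4 h, was the most even of them (-0.63, adjusted p = 0.00769 with the block). The others were Atf3 (-1.05), Npas4 (-2.98), Fosb (-3.05), Ccn1 (-1.49), Gadd45b (-1.06) and Nr4a2 (-0.96). Without replicate 1 the median was -0.19, and 4 genes were called with the block (Npas4, Dusp4, Fos and Atf3), all lower. In that fit 0.5% of all genes were called, 23 lower and 47 higher, of 13987. These DMSO 4 h libraries are also the controls of DMF and MMF at 4 h.

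Between 4 and 24 h of EtOH no gene was called without the block (0.0% of all genes; 6 of the 36 had an unadjusted p under 0.05, and edgeR and DESeq2 called none). The estimates ran from -0.58 for Inhba, a subunit of activin, to 0.99 for Npas4, with a median of 0.0599. With the block, which called 1.05% of all genes, 6 genes were called. Egr1 (0.37), Scg2 (0.27), Arc (0.68) and Dusp5 were higher at 24 h, and Dusp4 (-0.28) and Jun (-0.26) were lower.

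**Figure D4:**
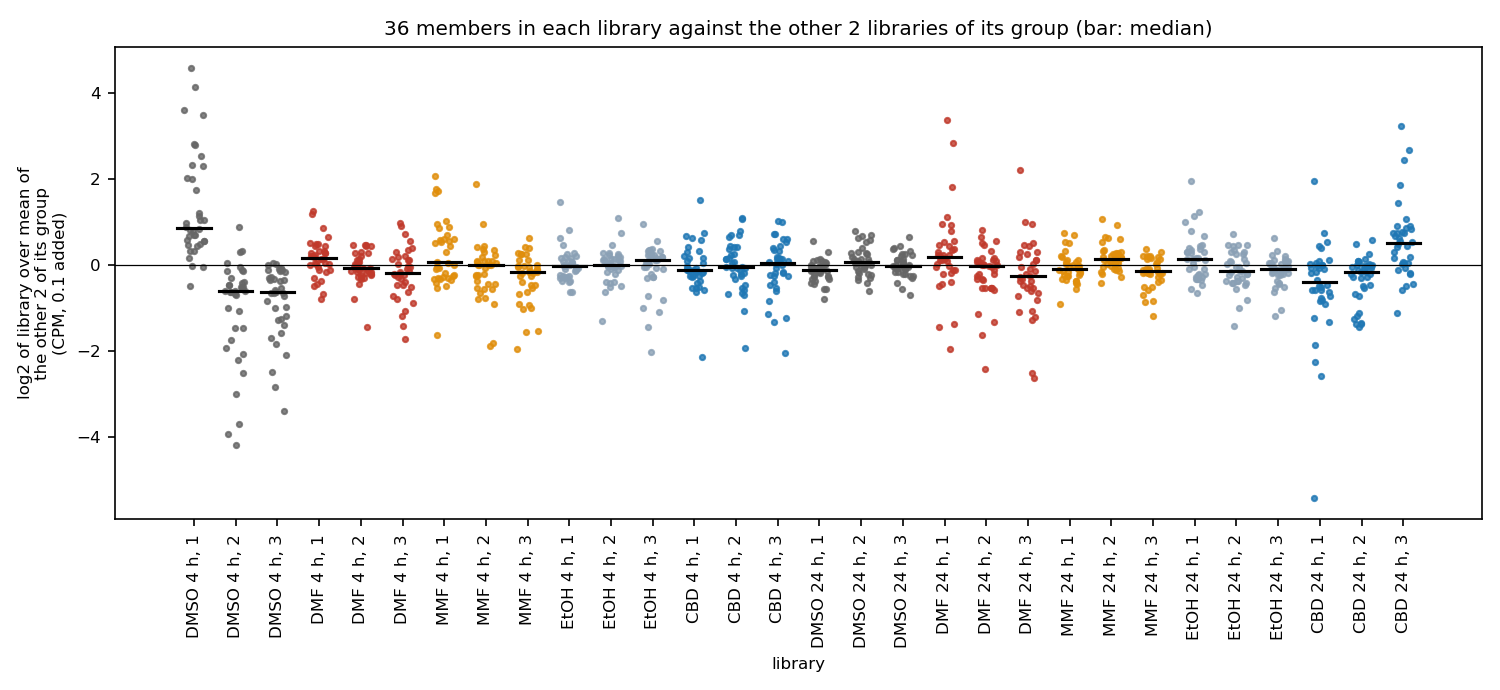
Level of each of the 36 genes in each library against the mean of the other libraries of its group, as a log2 ratio of CPM with 0.1 added. Each point is 1 gene and the bar is the median of the 36. DMSO replicate 1 at 4 h has a median of 0.87 and CBD replicate 3 at 24 h one of 0.52, the libraries described above as standing apart.

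Other genes are given by their range. Ier5 lay between 27.2 and 56.7 CPM over all 30 libraries and Per1, a clock gene that CREB also drives, between 37.9 and 88.1 CPM. Ier2 lay between 17.1 and 53.4 CPM and Klf2 between 1.60 and 4.99 CPM. Klf4 and Ier3, both at under 4 CPM in most libraries, were highest in replicate 3 of DMF and of CBD at 24 h, with Klf4 at 4.83 and 7.36 CPM there and Ier3 at 9.33 and 6.85 CPM. Inhba was at 1.69 CPM or less in every library, which limits what its counts can show. By position in the files (build mRatBN7.2), Fos lies on chromosome 6 from 105121170 to 105124036 and Jun on chromosome 5 from 109893145 to 109897656.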

How the data were processed

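Polyadenylated RNA of 30 libraries was sequenced by the authors, who used cutadapt 4.4 and Trimmomatic 0.39 for trimming, HISAT2 2.2.1 for alignment (build mRatBN7.2) and HTSeq 2.0.3 for counting over Ensembl 111 genes (strand setting not given in the sources used here). The deposited values are a normalized signal, counts divided by DESeq2 size factors. Whole reads were recovered for 100% of 1203030 values (tolerance 0.001 read). The deposited fold changes and p-values of the authors' comparisons were not used.

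Each comparison was fitted with limma 3.58.1 (mean trend) on log2(normalized count + 1) after filterByExpr (edgeR 4.0.16), 3 against 3 libraries, with Benjamini-Hochberg adjustment over all genes tested and a threshold of 0.05. Fold changes are on that log2 scale. CPM is recovered reads of a gene in every 1000000 reads on genes. Alternatives were edgeR, DESeq2 1.42.0, TMM, no filter, pseudocount 0.1, a replicate block, and leaving out libraries. Fits without replicate 1 or 3 of all groups were added after seeing the data. Same-numbered libraries deviated together (correlations 0.129 to 0.668 over 10 comparisons, each above the minimum of 0.1 set for pairing, with 0.185 the highest between different numbers). The lowest same-number value was below the highest between different numbers for MMF at 4 h (0.129 against 0.134) and DMSO over time (0.162 against 0.185). That a number marks a shared experiment was inferred. The numbers were taken to pair libraries, and blocked values are printed where calls change. On simulated counts for DMF against DMSO at 24 h (13967 genes, 200 changed by 1 on the log2 scale) limma without the block recovered 86.5% with 14 false calls. With the block it recovered the same 86.5% with 32 false calls, so blocked calls carried more false ones there. DESeq2 recovered 86% with 31 false calls.

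The genes, lists and tests were chosen with earlier results of these data known. All 36 listed genes are named with their values where called, with or without the block, up to 14 by smallest p, and the others by range or count. Of the other lists up to 4 called genes are named. For fits with all libraries, counts at an unadjusted p under 0.05 carry no share over all genes.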

Additional observations from a re-analysis of the deposited data

Results flagged for a closer look

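In 4 genes the effect of DMF differed between 24 h and 4 h by the test of the interaction in limma. The difference was 1.72 for Trib1 (adjusted p = 0.0117), 2.09 for Gadd45b (adjusted p = 0.0138), 1.85 for Nptx2 (adjusted p = 0.0178) and 0.97 for Jun (adjusted p = 0.0308), each on the log2 scale. Trib1 and Gadd45b kept the call in 12 of 12 fits that each left out a library. Nptx2 kept it in 11 and lost it without DMF replicate 2 at 24 h, and Jun kept it in 4. Without replicate 1 of all 4 groups none of the 36 genes was called without the block, and 18 were with it.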

How the results depend on the processing

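No gene called in limma changed sign under any alternative, and the counts of genes called moved with the replicate block, the tool and the libraries used. With the block, 25 genes were called for DMF against DMSO at 4 h and 19 at 24 h, 1 for MMF at 24 h, 6 for CBD at each time, 7 for DMSO and 6 for EtOH over time, 21 and 20 for DMF against MMF at 4 and 24 h, and 23 for the change of the DMF effect. edgeR with the block called 24, 19, 1, 6, 6, 7, 6, 20, 21 and 24 in the same order. edgeR without the block called 7 for the change of the DMF effect. DESeq2 called 5 for DMF against DMSO at 4 h, 1 and 8 for CBD at 4 and 24 h, 2 for DMSO over time, 3 for DMF against MMF at 4 h and 16 for the change of the DMF effect. Its share of all genes is not given here for CBD at 24 h or for the change of the DMF effect.

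Leaving out each library in turn gave 5 to 16 genes for DMF against DMSO at 24 h (5 without DMSO replicate 1, 7 without DMF replicate 2), 5 to 12 for DMF against MMF at 24 h (5 without MMF replicate 1), 0 to 1 for DMF against MMF and for CBD at 4 h, 0 to 5 for CBD at 24 h (5 without CBD replicate 1) and 2 to 10 for the change of the DMF effect (2 without DMF replicate 2 at 24 h, 10 without DMSO replicate 2 at 4 h). Without replicate 1 of all groups, 2 genes were called for DMF against DMSO at 24 h, 1 for DMF against MMF at 24 h and 0 for the change of the DMF effect, and with the block 19 for DMF against DMSO at 4 h, 21 and 17 for DMF against MMF at 4 and 24 h, 4 for DMSO over time and 18 for the change of the DMF effect. Without replicate 3 of both groups, CBD at 24 h had 0 genes called, or 16 with the block. Fewer libraries leave fewer residual degrees of freedom. For the genes named in a comparison, 1496 alternative values kept their side of the threshold, 244 passed it and 76 no longer did, and 28 changed sign, all of estimates that limma did not call with all libraries.

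Those sign changes cover the estimates named in the text and not all 36 genes. Over all 36, MMF at 4 h had 2 positive estimates, or 23 without DMSO replicate 1, and CBD at 24 h had 7, or 13 without CBD replicate 1. Leaving out each library in turn moved DMF against DMSO at 4 h from -0.77 to 0.60 for Egr1, from -1.56 to 0.086 for Egr4 and from -0.27 to 0.41 for Vgf, and Rgs2 at 24 h from -0.18 to 0.17. It moved MMF against DMSO at 4 h from -1.67 to 0.27 for Nr4a1 and from -0.10 to 0.48 for Ptgs2, and at 24 h from -0.074 to 0.16 for Egr1, from -0.19 to 0.22 for Arc and from -0.087 to 0.048 for Dusp4. Without replicate 1 of both groups, DMF at 4 h gave 0.51 for Egr1 and 0.24 for Egr4, with or without the block. For Vgf at 4 h edgeR gave -0.022 and DESeq2 -0.016, and for Rgs2 at 24 h they gave 0.017 and 0.015, with 0.00073 in edgeR with the block.

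Without the block, the p-values measure the spread between the 3 libraries of a group. With the block they measure the spread left after differences between replicate numbers are taken out. Fits that left out a replicate number rest on fewer libraries, and their limma p-values lean more on the spread shared over all genes. Genes under a few CPM, such as Inhba and Ier3, rest on few reads.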
